A study of Danio rerio with 14 samples.

Results

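A set of 7 transcripts of the thyroid hormone (TH) system and its nearest partners was followed through the eyes of zebrafish larvae. They encode the nuclear receptors thraa and thrb, the deiodinases dio1 and dio2, the transcription factors klf9 and hhex, and the receptor-associated protein thrap3b. The members were found by gene symbol, with older symbols brought up to date, from a list of names drawn up with earlier results of these data known. All 7 genes were measured, by 13 probes in total, among 8446 genes with 13708 assigned probes in the deposited table. The authors had dropped spots not above background from it, so shares of all genes refer to these 8446, not to the whole array.

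TH acts mainly through nuclear receptors that sit on DNA as partners of retinoid X receptors, where they repress target genes without hormone and activate them with it. The prohormone T4 is turned into the active form T3 by outer-ring deiodination, the task of type 2 and, in liver and kidney, type 1 deiodinase. In the vertebrate retina the beta receptor is known for setting which opsin a cone makes. PTU (6-propyl-2-thiouracil) is an antithyroid drug that blocks the thyroid peroxidase step of TH synthesis. In mammals it also inhibits type 1 but hardly type 2 deiodinase. In earlier work of the authors, larvae exposed to PTU had smaller eyes and reduced pigmentation of the retina.

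The study asked how disruption of the TH system changes transcription in the developing eye and whether the changes reverse. Larvae of the wild-type AB strain formed 4 groups of 3 extracts: PTU 5 dpf (350 mg/L PTU from shortly after fertilization to 5 days post fertilization), control 5 dpf (no PTU, same age), PTU 8 dpf (the same exposure, then 3 days in clean water) and control 8 dpf (no PTU throughout). Each extract pooled the eyes of 10 larvae, and the biological replicates were raised on separate plates. RNA was compared pairwise on 14 two-colour arrays, 6 of them with both groups of 5 dpf and 4 with both groups of 8 dpf. The other arrays joined the ages, and their 5 dpf extract was always replicate 1 of PTU 5 dpf or of control 5 dpf. Comparisons across ages reach the other 5 dpf extracts only through these.

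A level is given below as a log2 value relative to the mean of the control 5 dpf extracts, and a log2 fold change runs PTU over control or 8 over 5 dpf. Values come from the whole eye, where fewer cells of a type and less RNA per cell cannot be told apart. A gene was called at an adjusted p under 0.05 (limma, Benjamini-Hochberg over all 8446 genes). The array medians lay between -0.01 and 0.00. Once turned the same way, the 6 arrays of 5 dpf correlated with a median r of 0.749 (lowest 0.596) and the 4 arrays of 8 dpf with 0.674 (lowest 0.404), across genes, which are not independent replicates. The array of control 8 dpf replicate 2 against PTU 8 dpf replicate 1 had the largest residual SD (0.406, against 0.196 on the tightest array). Marker transcripts of cones (17), rods (16) and pigment epithelium (12) were measured in the eye extracts, as were those of liver (10), skeletal muscle (16) and skin (15). The signals are ratios, so they do not rank genes by abundance.

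At 5 dpf, 3 of the 7 genes fell in PTU eyes (thraa, thrb, dio1) and 2 rose (dio2, hhex), where 22.8% of all genes fell and 24.2% rose. At 8 dpf again 3 fell (thraa, thrb, klf9) and 2 rose (dio2, hhex), beside 13.2% and 19.6% of all genes. The PTU effect became more positive between the ages for 1 gene, dio1, and more negative for 1, klf9, against 11.9% and 6.93% of all genes. The median log2 fold change of the 7 genes was 0.13 at 5 dpf and 0.00 at 8 dpf, beside medians of 0.00 and 0.01 over all genes. At 5 dpf dio1 was 1.27-fold lower, dio2 1.23-fold higher and hhex 1.28-fold higher in PTU eyes than in control eyes.

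**Figure D1:**
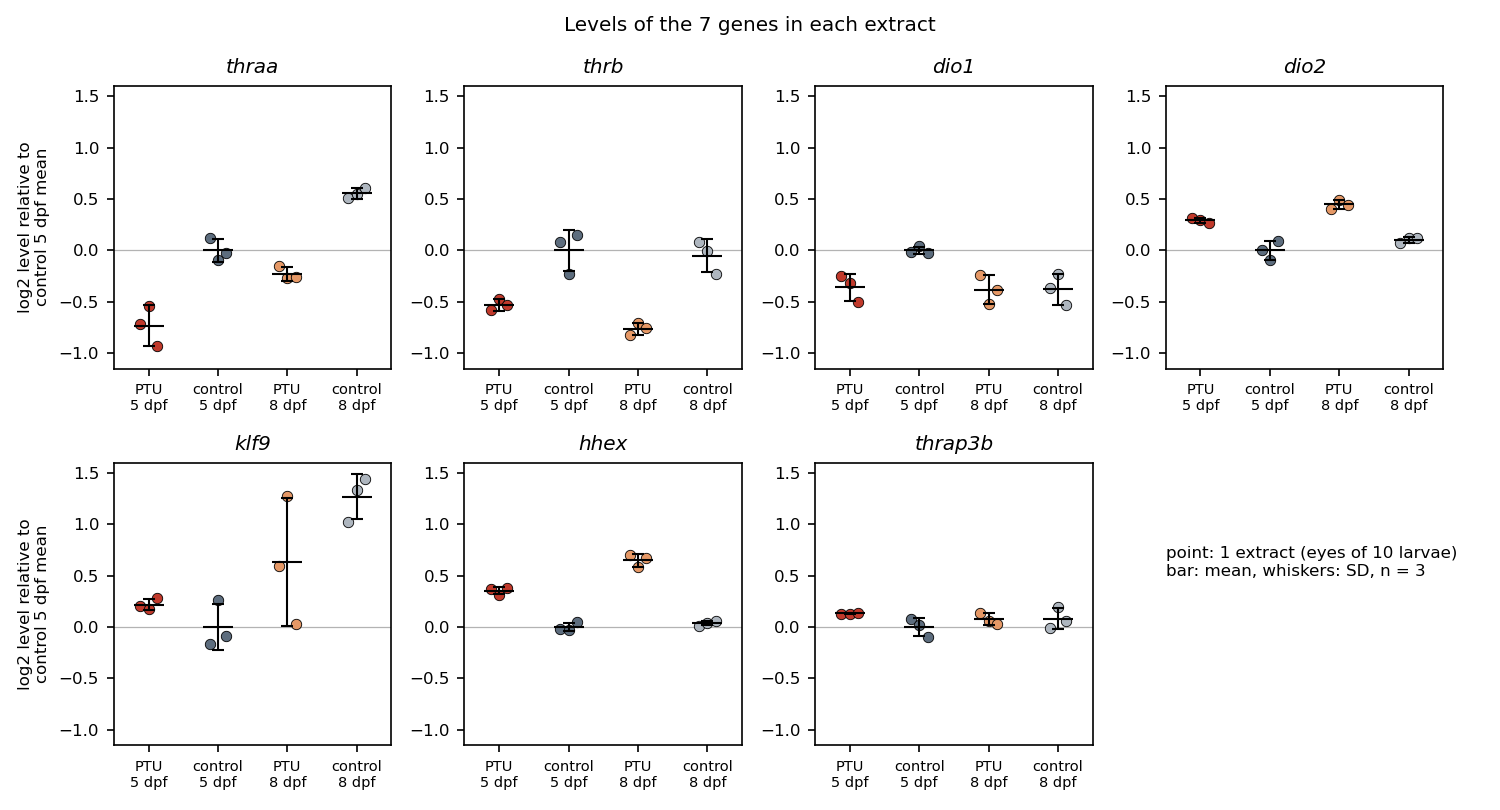
Log2 level of each of the 7 genes relative to the control 5 dpf mean (y axis) in the 12 extracts, by group (x axis). Points are extracts, the bar is the mean and the whiskers are the SD (n = 3). PTU extracts lie below control extracts at both ages for thraa and thrb and above them for dio2 and hhex, while the klf9 extracts of PTU 8 dpf spread from 0.03 to 1.27.

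Transcripts of both receptors were lower in PTU eyes at 5 dpf and also after 3 days in clean water. In PTU eyes at 5 dpf, thraa, which encodes a receptor alpha of TH, stood at -0.72, -0.54 and -0.93 in the 3 extracts, against 0.12, -0.10 and -0.03 in control eyes. In PTU eyes at 8 dpf it stood at -0.16, -0.27 and -0.26, against 0.51, 0.55 and 0.60 in control eyes. PTU and control extracts of the same age did not overlap. The log2 fold change was -0.74 ± 0.10 at 5 dpf (SE; 0.598-fold; limma adjusted p = 1.72e-05) and -0.78 ± 0.11 at 8 dpf (0.582-fold; limma adjusted p = 5.47e-05). The ratio was below 0 on 6 of 6 direct arrays at 5 dpf (-1.18 to -0.47) and on 4 of 4 at 8 dpf (-1.02 to -0.58).

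With age, thraa rose in both groups. It was higher at 8 than at 5 dpf by 0.44 ± 0.14 in PTU eyes (limma adjusted p = 0.0413) and by 0.48 ± 0.14 in control eyes (limma adjusted p = 0.0325). Among the 7 genes, 2 rose with age in PTU eyes (thraa, hhex) and 0 fell, beside 8.77% and 6.70% of all genes. In control eyes 2 rose (thraa, klf9) and 1 fell (dio1), beside 4.66% and 7.04%. Both age calls of thraa were lost in 9 of 12 fits that left out 1 extract, with adjusted p up to 0.463 in PTU eyes and 0.288 in control eyes (limma). The effects of PTU on thraa at the 2 ages differed by -0.04 (95% interval -0.35 to 0.27; limma adjusted p = 0.879). The order of the group means was control 8 dpf, control 5 dpf, PTU 8 dpf and PTU 5 dpf, and no 2 neighbours overlapped. Across ages, these levels were linked only through replicate 1 of control 5 dpf and of PTU 5 dpf.

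The beta receptor, thrb, was measured by 3 probes that tracked each other over the 14 arrays (r from 0.921 to 0.988). Its level was -0.58, -0.47 and -0.53 in PTU eyes at 5 dpf, against 0.08, -0.23 and 0.15 in control eyes. At 8 dpf it was -0.82, -0.71 and -0.76 in PTU eyes, against 0.08, -0.01 and -0.23 in control eyes. Again the PTU and control extracts did not overlap at either age. In log2 terms thrb changed by -0.55 ± 0.09 at 5 dpf (0.685-fold; limma adjusted p = 0.000100) and -0.70 ± 0.10 at 8 dpf (0.616-fold; limma adjusted p = 5.15e-05).

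Unlike thraa, thrb had no called change with age. It differed between 8 and 5 dpf by -0.19 ± 0.12 in PTU eyes (limma adjusted p = 0.342) and by -0.03 ± 0.12 in control eyes (limma adjusted p = 0.896). The difference between the receptors was not tested. The PTU effect on thrb differed between the ages by -0.15 (95% interval -0.43 to 0.12; limma adjusted p = 0.450). The 2 control groups of thrb overlapped, whereas PTU 8 dpf lay below PTU 5 dpf in all extracts in the mean of the probes. For the probe with the largest PTU effect the PTU groups overlapped (-0.85 to -0.48 at 5 dpf, -0.81 to -0.69 at 8 dpf). The 3 probes differed in size, with log2 fold changes of -0.71, -0.51 and -0.42 at 5 dpf and of -0.87, -0.70 and -0.52 at 8 dpf.

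**Figure D2:**
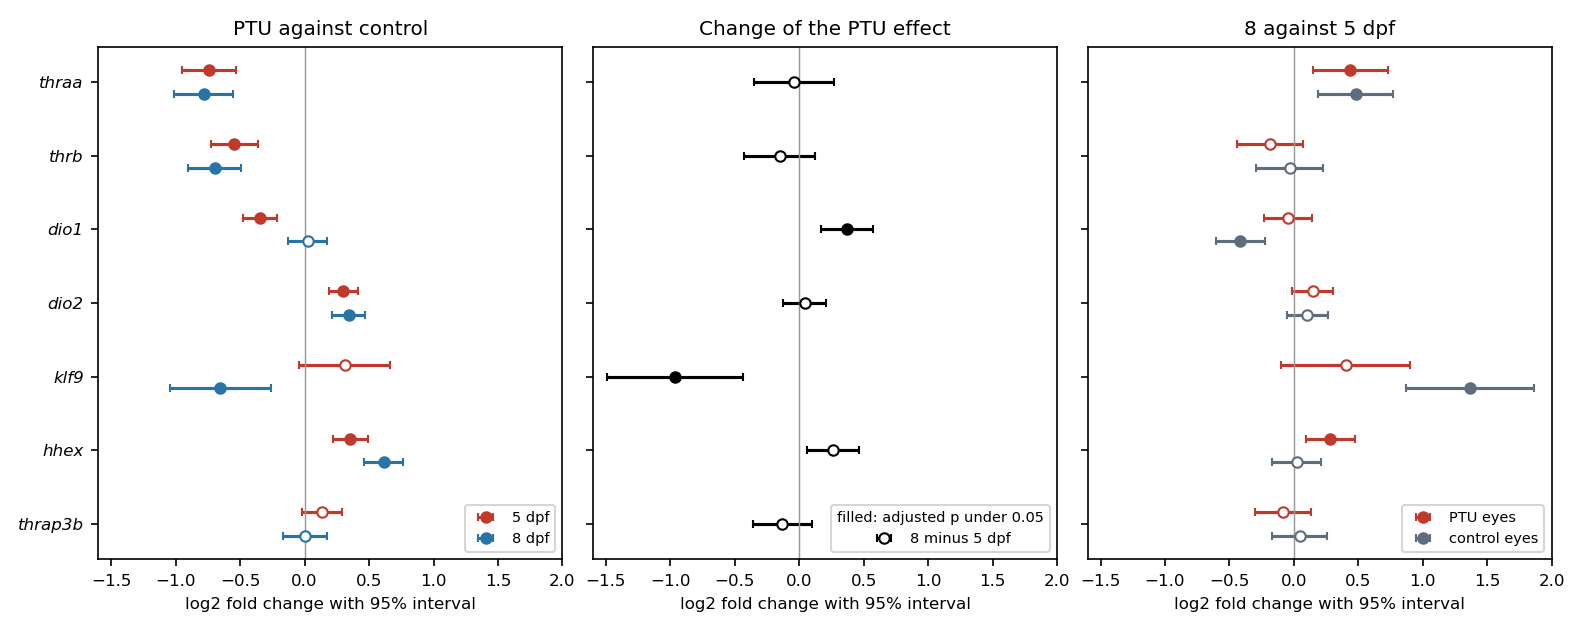
Log2 fold changes (x axis, with 95% intervals) of the 7 genes (y axis) for PTU against control at each age, for the difference between those effects, and for 8 against 5 dpf in PTU and in control eyes. Filled points passed an adjusted p of 0.05 in limma. The receptors are lower in PTU eyes by 0.55 to 0.78 at both ages, and klf9 changes side between them.

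The calls for both receptors at both ages were kept in 12 of 12 fits without 1 extract. Markers of other cells moved beside them. Of 17 cone markers, PTU eyes had 14 lower and 1 higher at 5 dpf by the test, beside 22.8% and 24.2% of all genes. At 8 dpf 9 were lower and 3 higher, beside 13.2% and 19.6%. The mean log2 level of the cone list ran from -1.98 to -1.54 in PTU 5 dpf extracts, against -0.31 to 0.24 in control 5 dpf. At 8 dpf it ran from -1.96 to -1.19 in PTU eyes, against -1.12 to -0.72 in control eyes. The 12 pigment epithelium markers split into 11 lower and 1 higher at 5 dpf, then 6 lower and 2 higher at 8 dpf. Of 16 rod markers, 11 were lower and 2 higher in PTU eyes at 5 dpf by the test, whereas 11 were higher and 0 lower at 8 dpf. The mean log2 level of the rod list ran from -0.73 to -0.48 in PTU 5 dpf extracts, against -0.29 to 0.16 in control 5 dpf, and from -0.40 to -0.15 in PTU 8 dpf, against -0.80 to -0.68 in control 8 dpf. Their part in the receptor values was not tested. The second alpha receptor, thrab, was not analysed here, and whether the thraa probe also binds its transcript was not tested.

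The deiodinases moved in opposite directions at 5 dpf. The level of dio1, which encodes the enzyme that can remove iodine from either ring of T4, was -0.25, -0.32 and -0.50 in PTU eyes at 5 dpf, against -0.02, 0.04 and -0.02 in control eyes. At 8 dpf it was -0.24, -0.53 and -0.38 in PTU eyes, against -0.37, -0.23 and -0.54 in control eyes. The groups were apart at 5 dpf and overlapped fully at 8 dpf. The log2 fold change was -0.35 ± 0.06 at 5 dpf (0.786-fold; limma adjusted p = 0.000335; 6 of 6 arrays below 0) and 0.02 ± 0.07 at 8 dpf (95% interval -0.13 to 0.17; limma adjusted p = 0.839; arrays from 0.02 to 0.14).

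The change of the PTU effect on dio1 was 0.37 ± 0.09 (limma adjusted p = 0.0131). It came with an age difference in control eyes, where dio1 fell by 0.41 ± 0.09 on the log2 scale (limma adjusted p = 0.00664), while the difference in PTU eyes was -0.04 ± 0.09 (limma adjusted p = 0.791). So dio1 was highest in control eyes at 5 dpf, and the other 3 groups overlapped at a lower level. Without PTU 5 dpf replicate 1, PTU 5 dpf replicate 3, PTU 8 dpf replicate 3 or control 8 dpf replicate 3 the change of effect was 0.43, 0.31, 0.35 and 0.33, with adjusted p of 0.0561, 0.0505, 0.0567 and 0.0922 (limma). The fall in control eyes had an adjusted p of 0.217 without PTU 5 dpf replicate 1 and 0.0660 without control 8 dpf replicate 1 (limma).

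Liver transcripts were also lower in PTU eyes at 5 dpf. Of 10 liver markers, 8 were lower and 1 higher in PTU eyes at 5 dpf, beside 22.8% and 24.2% of all genes. At 8 dpf 2 were lower and 2 higher by the test, beside 13.2% and 19.6%. Their mean log2 level ran from -1.70 to -1.12 in PTU 5 dpf extracts, against -1.10 to 0.58 in control 5 dpf. At 8 dpf it ran from -1.45 to -1.03 in PTU eyes, against -1.06 to -0.74 in control eyes. With age in control eyes, where dio1 fell, 0 of the 10 markers were called, beside 4.66% of all genes that rose and 7.04% that fell. Their median log2 fold change there was nevertheless -0.67, beside -0.002 over all genes, with single markers from -1.73 to 0.60. Their part in the dio1 values was not tested.

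The level of dio2, which encodes the main T3-producing enzyme of brain and eye, was 0.31, 0.30 and 0.27 in PTU eyes at 5 dpf, against 0.00, -0.09 and 0.09 in control eyes. In PTU eyes at 8 dpf it was 0.41, 0.49 and 0.44, against 0.07, 0.12 and 0.12 in control eyes. PTU extracts were the higher ones at both ages, without overlap. It rose by 0.30 ± 0.05 on the log2 scale at 5 dpf (1.23-fold; limma adjusted p = 0.000290) and 0.34 ± 0.06 at 8 dpf (1.27-fold; limma adjusted p = 0.000413). The effect differed between the ages by 0.04 (95% interval -0.13 to 0.21), and neither group changed with age by the test (0.15 ± 0.07 in PTU eyes and 0.10 ± 0.07 in control eyes). The genes of type 3 deiodinase, which inactivates the hormone, were not analysed here.

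**Figure D3:**
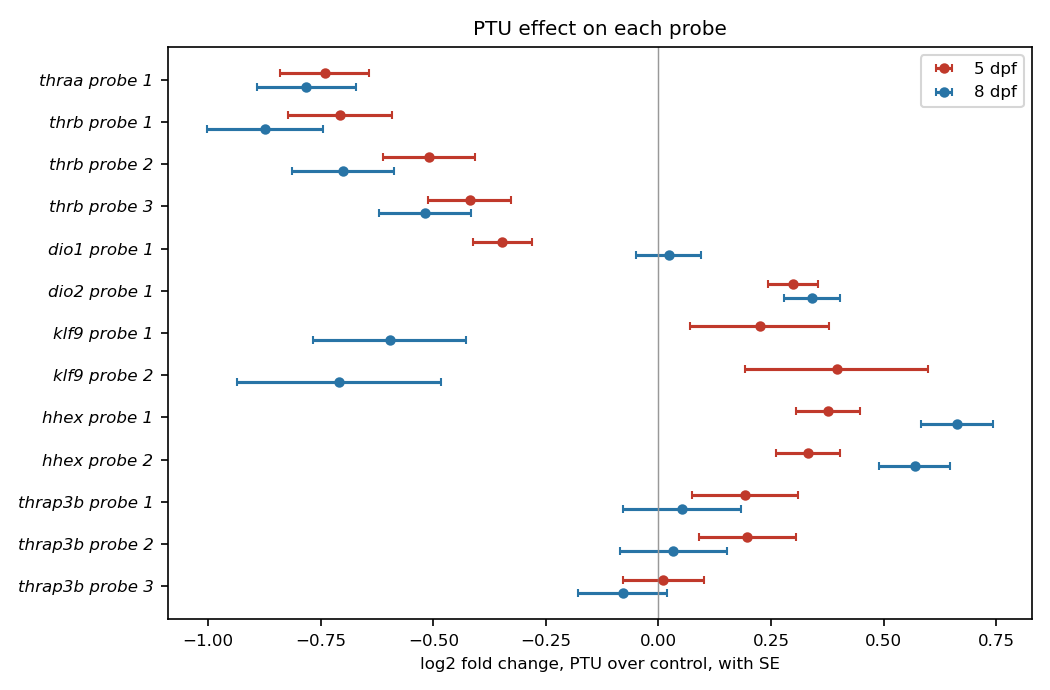
Log2 fold change of PTU over control at 5 and 8 dpf (x axis, whiskers are the SE) for each of the 13 probes (y axis). Probes of thrb, klf9 and hhex point the same way within a gene at each age, and those of thrap3b lie between 0.01 and 0.20 at 5 dpf and on both sides of 0 at 8 dpf.

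The transcription factor klf9 is a Krüppel-like factor that TH induces directly in frog and mammalian brain. Glucocorticoids induce it too. Its level was 0.20, 0.18 and 0.28 in PTU eyes at 5 dpf, against -0.16, 0.26 and -0.09 in control eyes, so the groups overlapped. At 8 dpf it was 0.59, 1.27 and 0.03 in PTU eyes, against 1.02, 1.33 and 1.44 in control eyes. Replicate 2 of PTU 8 dpf lay among the control eyes, and replicate 3 lay within the range of control 5 dpf. The log2 fold change was 0.31 ± 0.17 at 5 dpf (95% interval -0.04 to 0.66; limma adjusted p = 0.139) and -0.65 ± 0.18 at 8 dpf (0.636-fold; limma adjusted p = 0.0135).

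The largest age difference among the 7 genes was that of klf9 in control eyes. It rose there by 1.36 ± 0.23 (2.57-fold; limma adjusted p = 0.00160), which put it at percentile 99.85 of all genes. In PTU eyes the difference was 0.40 ± 0.23 (limma adjusted p = 0.284). The change of the PTU effect was -0.96 ± 0.25 (limma adjusted p = 0.0143). Both klf9 probes gave these directions and correlated with r = 0.940 over the 14 arrays.

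Single extracts weighed heavily on klf9. The fall at 8 dpf was -0.33 (adjusted p = 0.111) without PTU 8 dpf replicate 3, -0.69 (0.0517) without PTU 8 dpf replicate 1, -0.61 (0.0523) without control 8 dpf replicate 2 and -0.56 (0.0537) without control 8 dpf replicate 3, all in limma. The change of effect was -0.60 (adjusted p = 0.0575) without PTU 8 dpf replicate 3, -0.88 (0.0997) without PTU 5 dpf replicate 1 and -0.84 (0.0773) without control 5 dpf replicate 1 (limma). Without control 5 dpf replicate 1, the rise in control eyes was 0.93 (limma adjusted p = 0.225). In PTU eyes the age difference was 0.77 (limma adjusted p = 0.0331) without PTU 8 dpf replicate 3. The SD of the PTU 8 dpf extracts was 0.622, against 0.217 in control 8 dpf and 0.0528 in PTU 5 dpf.

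The homeobox factor hhex acts in the early thyroid primordium, in liver, in endothelium and in blood cells. Its level was 0.37, 0.31 and 0.37 in PTU eyes at 5 dpf, against -0.02, -0.03 and 0.05 in control eyes. In PTU eyes at 8 dpf it was 0.70, 0.58 and 0.67, against 0.01, 0.04 and 0.06 in control eyes. Each group kept within a narrow range, and PTU and control extracts were apart at both ages. The log2 fold change was 0.35 ± 0.06 at 5 dpf (1.28-fold; limma adjusted p = 0.000335) and 0.62 ± 0.07 at 8 dpf (1.53-fold; limma adjusted p = 1.02e-05). Its 2 probes correlated with r = 0.977.

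With age, hhex rose by 0.28 ± 0.09 in PTU eyes (limma adjusted p = 0.0446) and differed by 0.02 ± 0.09 in control eyes (limma adjusted p = 0.907). The change of effect, 0.26 ± 0.10, missed the threshold (limma adjusted p = 0.0705). The rise in PTU eyes was lost in 10 of 12 fits without 1 extract, with adjusted p up to 0.423 (limma), whereas the calls against control were kept in 12 of 12 for hhex and for dio2 at both ages.

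The receptor-associated protein thrap3b, a splicing and coactivator factor first isolated with the TH receptor complex in mammals, had no call. Its level was 0.12, 0.13 and 0.14 in PTU eyes at 5 dpf, against 0.08, 0.02 and -0.10 in control eyes. In the older PTU eyes it was 0.14, 0.06 and 0.03, against -0.01, 0.19 and 0.06 in control eyes. Its log2 fold change was 0.13 (95% interval -0.02 to 0.29; limma adjusted p = 0.143) at 5 dpf and 0.00 (95% interval -0.17 to 0.17; limma adjusted p = 0.989) at 8 dpf. At 5 dpf its PTU and control extracts did not overlap, so groups also stood apart without a call. How many of all genes did so was not counted. Its 3 probes were uncorrelated over the 14 arrays (r from -0.09 to 0.10).

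For each gene the 3 transcripts with the closest profile over the 12 extracts were looked up among all 8446 genes by Pearson's r of the levels. The extracts share the 4 groups, so the coefficients include the differences between group means. Genes picked this way will tend to change with PTU as the member does, so their changes give no separate support. Many genes were nearly as close to some members. The number with r over 0.9 was 148 for hhex, 98 for dio2, 158 for thraa and 20 for thrb. It was 6 for dio1, 2 for klf9 and 1 for thrap3b. The fourth closest gene had r = 0.990 for hhex and 0.971 for dio2. For hhex they were dnase2 (a lysosomal DNase, r = 0.993), spi1a (a master factor of myeloid cells, r = 0.992) and irf8 (a macrophage factor, r = 0.992). For dio2 they were zgc:64051 (r = 0.976), cmklr1 (a chemoattractant receptor of leukocytes, r = 0.972) and nrros (a myeloid and microglial protein, r = 0.972). All 6 rose in PTU eyes at both ages, irf8 for example by 0.93 ± 0.11 at 5 dpf (limma adjusted p = 8.92e-06) and 1.57 ± 0.13 at 8 dpf (limma adjusted p = 2.67e-07).

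**Figure D4:**
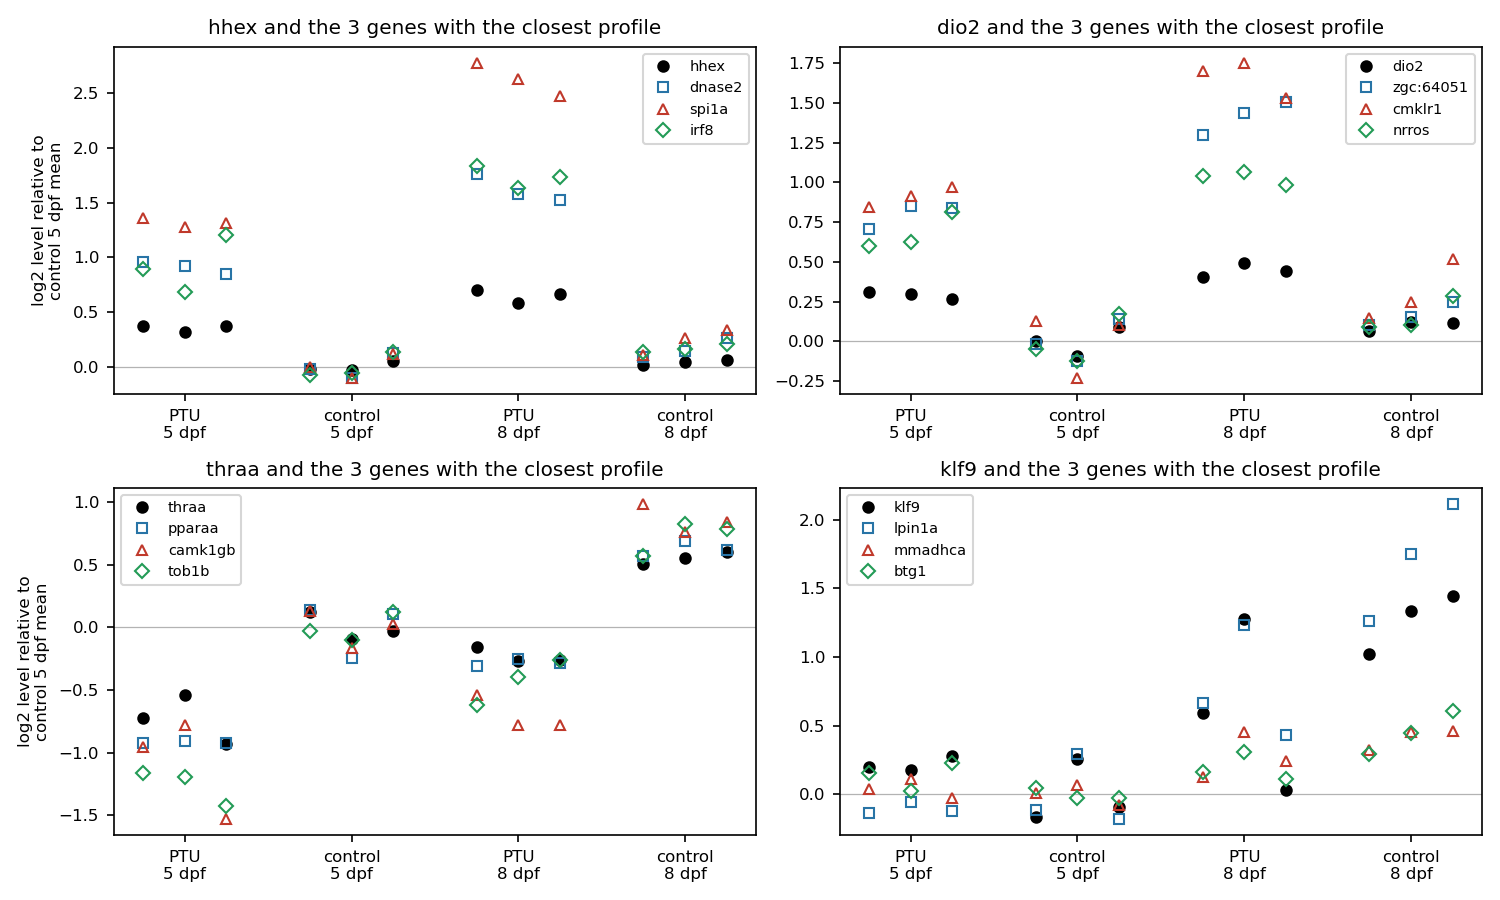
Log2 levels relative to the control 5 dpf mean (y axis) of hhex, dio2, thraa and klf9 and of the 3 genes with the closest profile to each, in the 12 extracts by group (x axis, 3 extracts per group side by side). The genes closest to hhex and dio2 are high in both PTU groups and highest in PTU 8 dpf, with spi1a reaching 2.78.

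Macrophage and microglia markers were also higher in PTU eyes. Of 12 such markers, spi1a included, 10 rose at 5 dpf and 12 at 8 dpf, where 24.2% and 19.6% of all genes rose. Of the markers 0 fell at either age. Their mean log2 level ran from 1.18 to 1.29 in PTU 5 dpf extracts, against -0.07 to 0.08 in control 5 dpf, and from 2.32 to 2.47 in PTU 8 dpf, against 0.13 to 0.17 in control 8 dpf. Between the ages the PTU effect became more positive for 9 of the 12, beside 11.9% of all genes. With age in PTU eyes 10 of the 12 rose, beside 8.77%. For dio2 neither difference was called (0.04 and 0.15), and for hhex only the rise with age was (0.28). Nor was either difference called for the markers mpeg1.1 (-0.16 and -0.10) and mfap4.1 (-0.33 and -0.20). Of 11 vascular endothelium markers, 2 were higher and 1 lower at 5 dpf by the test, beside 24.2% and 22.8% of all genes. At 8 dpf 4 were higher and 0 lower, beside 19.6% and 13.2%. Their part in the hhex and dio2 values was not tested. Among the other thyroid gland genes, nkx2.1 and pax2a had no call, with log2 fold changes of 0.01 and 0.04 at 5 dpf and -0.12 and -0.06 at 8 dpf.

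The transcripts closest to thraa were pparaa (a lipid-sensing nuclear receptor, r = 0.977), camk1gb (a calcium-dependent kinase, r = 0.972) and tob1b (an antiproliferative factor, r = 0.972). Those closest to thrb were si:dkey-206f10.1 (r = 0.950), spock3 (an extracellular matrix proteoglycan, r = 0.947) and gch2 (a pteridine enzyme of pigment cells, r = 0.943). These 6 fell in PTU eyes at both ages, which follows in part from their being picked for likeness to the receptors. For pparaa the log2 fold change was -0.92 ± 0.08 at 5 dpf and -0.91 ± 0.09 at 8 dpf. For gch2 it was -1.19 ± 0.16 and -1.13 ± 0.18.

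The transcript closest to klf9 was lpin1a, an enzyme of triglyceride synthesis (r = 0.944), followed by mmadhca (r = 0.902) and btg1 (an antiproliferative factor, r = 0.892). In PTU eyes lpin1a differed by -0.03 ± 0.15 at 5 dpf (limma adjusted p = 0.887) and fell by 0.98 on the log2 scale at 8 dpf (limma adjusted p = 0.000303). It stood at 0.67, 1.24 and 0.44 in PTU 8 dpf extracts, against 1.26, 1.75 and 2.12 in control 8 dpf, without overlap. As for klf9, replicate 2 was the highest and replicate 3 the lowest of the PTU 8 dpf extracts. The gene lpin1a was picked for its likeness to klf9 over these same extracts. The transcripts closest to dio1 were ube2h (r = 0.931), tagln3b (r = 0.916) and fhl2a (r = 0.914), which all fell at 5 dpf and had no call at 8 dpf. Those closest to thrap3b were clint1a (r = 0.915), nop56 (r = 0.865) and dennd2b (r = 0.846).

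Over lists of the wider hormone pathway, with the 7 genes included, 50 genes were measured. In PTU eyes at 5 dpf 14 of the 50 rose and 16 fell, where 24.2% of all genes rose and 22.8% fell, and the median log2 fold change was 0.01 beside 0.00 for all genes. At 8 dpf 10 rose and 11 fell, where 19.6% of all genes rose and 13.2% fell, and the median was -0.06 beside 0.01 for all genes.

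**Figure D5:**
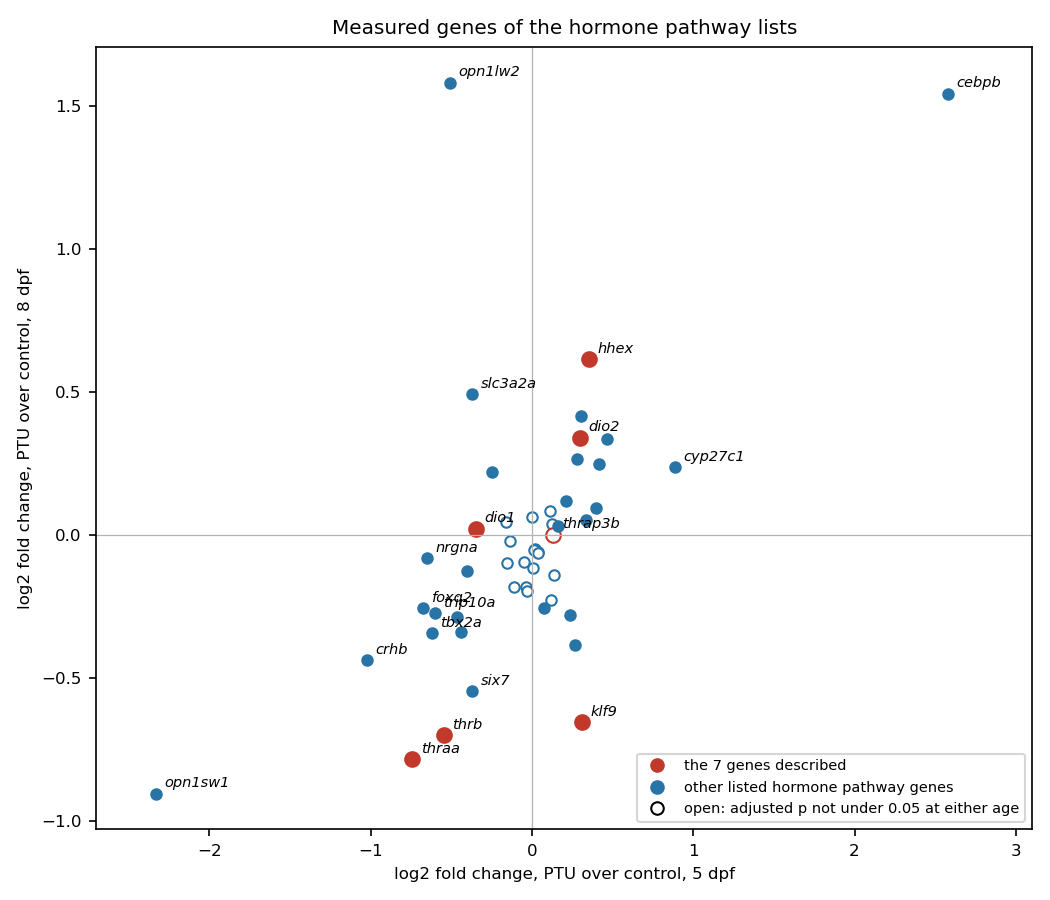
Log2 fold change of PTU over control at 5 dpf (x axis) and at 8 dpf (y axis) for the 50 measured genes of the hormone pathway lists. The receptors lie low on both axes, opn1lw2 lies below 0 at 5 dpf and at 1.58 at 8 dpf, and cebpb is highest at 5 dpf with 2.58.

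Of the retinoid X receptors, the DNA partners of TH receptors, 2 were measured. One of them, rxrgb, rose by 0.28 ± 0.08 at 5 dpf (limma adjusted p = 0.0106) and 0.27 ± 0.09 at 8 dpf (limma adjusted p = 0.0318), and rxrga had log2 fold changes of 0.00 and 0.06. Of 4 selenocysteine genes, which the deiodinases need because they are selenoproteins, the selenophosphate synthetase genes sephs3 (0.47 and 0.34) and sephs1 (0.41 and 0.25) rose at both ages, and sepsecs and eefsec had no call. Of all genes 24.2% rose at 5 dpf and 19.6% at 8 dpf.

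Among 4 transporter genes 2 rose and 1 fell at 5 dpf, beside 24.2% and 22.8% of all genes. At 8 dpf again 2 rose and 1 fell, beside 19.6% and 13.2%. Of these slc16a10, which encodes a TH and aromatic amino acid transporter, rose at both ages (0.31 ± 0.11 and 0.42 ± 0.12). The paralogs slc3a2a and slc3a2b encode the heavy chain of amino acid transporters that also carry TH. For slc3a2a the log2 fold change was -0.37 ± 0.09 at 5 dpf and 0.49 ± 0.10 at 8 dpf, and for slc3a2b it was 0.27 ± 0.10 at 5 dpf and -0.38 ± 0.11 at 8 dpf. All 4 values passed the test, and so did both changes of effect, 0.86 ± 0.13 for slc3a2a (limma adjusted p = 0.000457) and -0.65 ± 0.15 for slc3a2b (limma adjusted p = 0.00865). Whether their probes tell the paralogs apart was not tested. The transporter slco1c1 had no call.

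Of 6 corepressor genes only tbl1x, a part of the NCoR complex, was called, with log2 fold changes of -0.25 ± 0.07 at 5 dpf and 0.22 ± 0.08 at 8 dpf. Of all genes, 22.8% fell and 24.2% rose at 5 dpf, and 13.2% fell and 19.6% rose at 8 dpf. The next list held 10 genes of coactivators, of Mediator or named as interactors of TH receptors, thrap3b included. Of these 4 rose and 1 fell at 5 dpf, beside 24.2% and 22.8% of all genes. At 8 dpf 0 rose and 1 fell, beside 19.6% and 13.2%. The Mediator gene med24 rose by 0.33 ± 0.06 at 5 dpf and trip10a, named as such an interactor, fell by 0.60 on the log2 scale.

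Of 7 genes known to respond to TH, klf9 included, 2 rose at 5 dpf and 3 fell, beside 24.2% and 22.8% of all genes. At 8 dpf 1 rose and 3 fell, beside 19.6% and 13.2%. The highest was cebpb, a leucine zipper factor also active in myeloid cells, with 2.58 ± 0.13 at 5 dpf (limma adjusted p = 1.89e-09) and 1.54 ± 0.15 at 8 dpf (limma adjusted p = 1.60e-06). The neuronal genes nrgna and camk4 fell at 5 dpf, by 0.65 and 0.44 on the log2 scale, and camk4 fell at 8 dpf by 0.34.

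A list of genes linked to TH and to cone vision held 9 genes. Of these, PTU eyes had 1 higher and 6 lower at 5 dpf, beside 24.2% and 22.8% of all genes. At 8 dpf 1 was higher and 3 were lower by the test, beside 19.6% and 13.2%. The ultraviolet opsin opn1sw1 fell at both ages, with -2.33 ± 0.21 and -0.90 ± 0.23. The red opsin opn1lw2 had -0.51 ± 0.14 at 5 dpf (limma adjusted p = 0.00889) and 1.58 ± 0.16 at 8 dpf (limma adjusted p = 2.70e-06), a change of effect of 2.09 ± 0.21 (limma adjusted p = 2.79e-05). Its near-identical copy opn1lw1 was not analysed here, and whether the probe binds both was not tested. The enzyme cyp27c1, which makes vitamin A2, rose by 0.89 ± 0.09 at 5 dpf and had 0.24 ± 0.10 at 8 dpf (limma adjusted p = 0.0673). The hypothalamic gene crhb fell at both ages (-1.02 ± 0.11 and -0.44 ± 0.12), and trh had no call.

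Of 10 measured Krüppel-like factor genes, klf9 included, 3 were higher and 2 lower at 5 dpf, beside 24.2% and 22.8% of all genes. At 8 dpf 1 was higher and 2 were lower by the test, beside 19.6% and 13.2%. The relative klf15 fell at both ages, with -0.51 ± 0.09 and -0.46 ± 0.10, and klf11a fell at 5 dpf, with -0.47 ± 0.08. Of 12 glucocorticoid-responsive genes, 6 rose and 1 fell at 5 dpf, beside 24.2% and 22.8% of all genes. At 8 dpf 0 rose and 2 fell, beside 19.6% and 13.2%. The clock gene per1b was the lowest of these, with -1.53 ± 0.16 at 5 dpf and -1.87 ± 0.18 at 8 dpf. At 5 dpf sgk1 (0.40 ± 0.06) and nfkbiaa (0.43 ± 0.12) rose, and neither was called at 8 dpf. At 8 dpf tsc22d3 fell (-0.30 ± 0.08). In control eyes per1b was higher at 8 than at 5 dpf by 1.86 ± 0.22 (limma adjusted p = 0.000100), as klf9 was. In PTU eyes per1b also rose with age, by 1.52 ± 0.22 (limma adjusted p = 0.000485), whereas klf9 had no call there. The PTU effect on per1b had no called change between the ages (-0.34 ± 0.24, limma adjusted p = 0.356), unlike that on klf9. Over the 12 genes of this list, the PTU effect became more negative for 3 and more positive for 0, beside 6.93% and 11.9% of all genes. With age in control eyes 4 of the 12 rose, per1b included, and 0 fell, beside 4.66% and 7.04%. Whether klf9 follows these genes was not tested. Per the study's methods, eyes were collected within a few hours of the morning to limit circadian differences, and the hour of each extract was not analysed here.

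Many calls of these other genes did not hold in all of the 22 alternative fits (21 for the change of effect), and the highest adjusted p over them (limma) is given here for each. At 5 dpf rxrgb passed in 19 fits (adjusted p up to 0.128), slc16a10 in 17 (up to 0.216), slc3a2b in 13 (up to 0.291), tbl1x in 20 (up to 0.0733), opn1lw2 in 17 (up to 0.102) and ube2h in 18 (up to 0.0884). At 8 dpf tbl1x passed in only 9 fits (adjusted p up to 0.205), sephs1 in 10 (up to 0.264), rxrgb in 13 (up to 0.213), slc3a2b in 14 (up to 0.154) and camk4 in 15 (up to 0.102). There crhb passed in 17 (up to 0.242), slc16a10 in 18 (up to 0.0959), sephs3 in 19 (up to 0.0712) and opn1sw1 in 20 (up to 0.0900). The change of effect on slc3a2b passed in 18 of 21 (up to 0.121). Of the glucocorticoid-responsive genes, nfkbiaa passed in 19 fits at 5 dpf (up to 0.145, without control 5 dpf replicate 1). At 8 dpf tsc22d3 passed in 17 (up to 0.0897, from the direct arrays alone). At 5 dpf the highest values for rxrgb and slc16a10 came without PTU 5 dpf replicate 1, for tbl1x without control 5 dpf replicate 3 and for ube2h without PTU 5 dpf replicate 3, while those for slc3a2b and opn1lw2 came from levels per extract. At 8 dpf they came without PTU 8 dpf replicate 1 for sephs3, sephs1, slc16a10 and crhb, without control 8 dpf replicate 3 for rxrgb and tbl1x, without PTU 8 dpf replicate 3 for slc3a2b, from levels per extract for opn1sw1 and from the direct arrays alone for camk4.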

How the data were processed

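The deposited table holds, per probe, the log2 of Cy5 over Cy3 signal. The authors made these values from GenePix scans of Agilent two-colour arrays with limma 3.34.4, using normexp background correction and loess within arrays. They dropped spots not above background on all arrays. The dyes in the labels set each direction, and log2 is the base the methods state. Intensities, slides and scan dates were not used here. Precision is limited by the number of extracts (12, with 3 per group) as well as of arrays.

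Of 16914 rows 1 control was left out, and 13708 of 16913 probes matched 8446 genes. Probes were averaged per gene. Group effects over 14 arrays were fitted with limma 3.58.1 in R 4.3.3, with a random effect of extract. It had 1 ratio of extract to array variance, 0.138, for all genes. The SE of a gene whose extracts spread more, such as klf9, may therefore be too small. Figures used Python 3.11.15 with matplotlib 3.10.9. The code was tested on simulated data. Levels per extract are least-squares values. Alternatives included independent arrays, other scalings, a dye effect and leaving out each extract.

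The 7 genes and all lists were chosen with earlier results of these data known. Each list is counted in full, with up to 4 genes of smallest p named, beside the 3 closest profiles per gene.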

Additional observations from a re-analysis of the deposited data

Results flagged for a closer look

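The PTU effect on dio1 differed between the ages by 0.37 ± 0.09 (limma, adjusted p = 0.0131), being -0.35 at 5 dpf and 0.02 at 8 dpf. The PTU effect on klf9 differed between the ages by -0.96 ± 0.25 (limma, adjusted p = 0.0143), being 0.31 at 5 dpf and -0.65 at 8 dpf. Of 14 sets of direct arrays, 2 for each gene, 1 held an array far from the others. It was dio2 at 8 dpf, where PTU replicate 3 against control replicate 3 gave 0.39, and the other 3 arrays gave 0.31, 0.31 and 0.32. Chance alone places about 1 set in 20 so.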

How the results depend on the processing

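The calls of thraa, thrb, dio2 and hhex in PTU against control at both ages, and of dio1 at 5 dpf, kept their direction and passed the threshold of 0.05 in every fit with another scaling, model or set of extracts. With a limit of 0.75 on the absolute log2 fold change, only thraa at 8 dpf was called among these, and in the methods' test of single probes thraa and 1 of 3 thrb probes at 8 dpf. The calls of klf9 and dio1 on the change of effect did not hold in every fit. With levels per extract their adjusted p was 0.153 and 0.158 (limma), and klf9 at 8 dpf had 0.0816, or 0.0915 with only the arrays that carry both groups. With arrays scaled to the same spread the age rise of thraa in PTU eyes had 0.0903, and the change of effect on hhex, not called in the report, had 0.0483, or 0.0278 with arrays taken as independent. The cause was not tested.

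The counts of genes called were 3969 and 2768 for PTU against control at 5 and 8 dpf, 1588 for the change of effect, 1307 for age in PTU eyes and 989 for age in control eyes. With an added fold limit of 0.75 on the log2 scale they were 731, 483, 364, 256 and 237, and in the methods' test of single probes 1491, 1081, 823, 648 and 558 probes. Levels per extract gave 644 for the change of effect, and the 4 direct arrays gave 1544 at 8 dpf. Without 1 extract the counts ran from 2643 to 4222, 1709 to 2889, 586 to 2092, 119 to 1614 and 126 to 1341. The lowest were without PTU 5 dpf replicate 1 (2643, 586 and 119), control 8 dpf replicate 3 (1709) and control 5 dpf replicate 1 (126). PTU 5 dpf replicate 1 and control 5 dpf replicate 1 lie on 4 arrays each and the other extracts on 2. No other 5 dpf extract shares an array with an 8 dpf extract.

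Replicate numbers were not used as pairs in the main fit. Deviations of equal numbers correlated with -0.19, 0.13 and -0.09 at 5 dpf and 0.63, 0.17 and -0.22 at 8 dpf. Those of unequal numbers ran from -0.11 to 0.25 at 5 dpf and from -0.51 to 0.49 at 8 dpf. With 3 extracts per group, taken relative to their own mean, these values cannot decide whether numbers are pairs. With the replicate number as a block (replicate block), 795 genes were called for age in PTU eyes and thrap3b at 8 dpf had -0.0023. Under it the age calls were lost for thraa in PTU eyes (limma adjusted p = 0.0670) and control eyes (0.0561) and for hhex in PTU eyes (0.0947), and no other call of the 7 genes changed.

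Signs turned only where the main value was not called. For PTU against control at 8 dpf, levels per extract gave -0.0047 for dio1 and -0.0057 for thrap3b, and 1 thrap3b probe -0.080. For age in control eyes 1 thrb probe gave 0.15, or 0.17 in the methods' test, and 1 thrap3b probe -0.075. For age in PTU eyes the thrb probe gave 0.012. Without 1 extract, dio1 ran from -0.022 to 0.068 and thrap3b from -0.041 to 0.037 at 8 dpf, and the change of effect on thraa from -0.13 to 0.039. For age in control eyes thrb ran from -0.17 to 0.13, hhex from -0.037 to 0.075 and thrap3b from -0.019 to 0.12, and for age in PTU eyes dio1 ran from -0.11 to 0.089.

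Of the calls of the other named genes, 32 of 44 at 5 dpf, 18 of 29 at 8 dpf and 6 of 19 on the change of effect were kept in all these fits, and 0 turned. Leaving out the array of largest residual spread was chosen after seeing the data. It took the age rise of thraa in PTU eyes to 0.41 (limma adjusted p = 0.0507) and changed no other call of the 7 genes.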
